A study of Homo sapiens with 6 samples.

Results

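The integrin subunits and laminin chains were followed in SW480, a human colorectal adenocarcinoma cell line, after knockdown of ZEB1, a zinc finger repressor of epithelial genes that binds E-box sequences. Members were taken by gene symbol alone, as the rows named for integrin α subunits (ITGA), integrin β subunits (ITGB1 to ITGB8) and laminin α, β and γ chains (LAMA, LAMB and LAMC). Of the 32029 genes listed, the 36 members described here were 25 integrin subunits (17 α and 8 β) and 11 laminin chains (5 α, 4 β and 2 γ). ITGA4 was not analysed here. RNA was taken 48 h after transfection from 3 cultures that received a control siRNA (siNC) and 3 that received an siRNA against ZEB1 (siZEB1), with the genotype labelled WT for siNC and as a ZEB1 knockdown for siZEB1. Everything rests on this single cell line, and the sequences of the siRNAs were not given in the sources used here. No agent other than the siRNAs was named in the labels.

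Integrins are receptors of the cell surface, each made of an α and a β subunit, which hold cells to the extracellular matrix and pass signals to the actin cytoskeleton. Laminins are the main glycoproteins of the basement membrane, each assembled from an α, a β and a γ chain, and LAMA3 and LAMB3 are chains of the laminin that anchors epithelia through hemidesmosomes. ITGA3, ITGA6 and ITGA7 form laminin receptors with ITGB1, and ITGA6 also pairs with ITGB4 in the hemidesmosome. In the intestine, epithelial cells stand on a basement membrane rich in laminin that contains LAMA5.

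The 6 libraries held between 19040636 and 22357633 counted reads, and the 36 members took between 0.215% and 0.257% of them. ZEB1 itself had 1247, 1276 and 908 counts with siNC and 136, 132 and 162 with siZEB1, so that the log2 ratio of siZEB1 to siNC, the log2 fold change, was -2.85 (SE 0.108, adjusted p = 4.85e-12). Every library therefore stood on the side its label gives. Of the 9 listed colorectal epithelial markers with values, KRT8 and KRT18 held most of the counts in every library, while CEACAM5 had 1 count in 1 siZEB1 library and 0 in the other 5. Of the 8 that were tested, EPCAM, KRT19, CDH1 and VIL1 were higher, CDX2 was lower and 3 did not pass the test. The summed level of these 9 markers was 4820 to 5440 CPM (counts scaled by TMM size factors to a common library size) with siNC and 5360 to 6030 CPM with siZEB1. Replicate 3 of siNC stood farthest from its group.

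Of the 36 members, 23 passed edgeR's filter on low counts and were tested, 16 integrin subunits and 7 laminin chains. At an adjusted p under 0.05 in edgeR's quasi-likelihood test, 4 members were higher and 5 were lower in siZEB1, 39.1% of those tested, against 40.2% of all 14996 genes. The members were therefore called about as often as genes in general. In the laminin family 2 chains rose (LAMB3 and LAMB2), 1 fell (LAMA5) and 4 did not pass the test, with a median log2 fold change of 0.188. In the integrin family 2 subunits rose (ITGB4 and ITGA10), 4 fell (ITGA6, ITGA7, ITGA3 and ITGA5) and 10 did not pass the test, with a median of -0.0564, while the median of all tested genes was -0.00546. Among all genes, 19.0% were called higher and 21.2% lower. The study names a fold change over 1.5 with p under 0.001 in one place and under 0.05 in another. At 0.001, LAMB3 was higher, LAMA5 was lower and no integrin subunit was called, where 4.52% of all genes were higher and 6.7% lower. At 0.05, ITGA10 was higher as well (2.41-fold, unadjusted p = 0.0022 in edgeR's test) and no other member was added, where 7.21% of all genes were higher and 9.35% lower. The 2 groups did not overlap for 12 of the 23 tested members, against 49.5% of all genes.

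**Figure D1:**
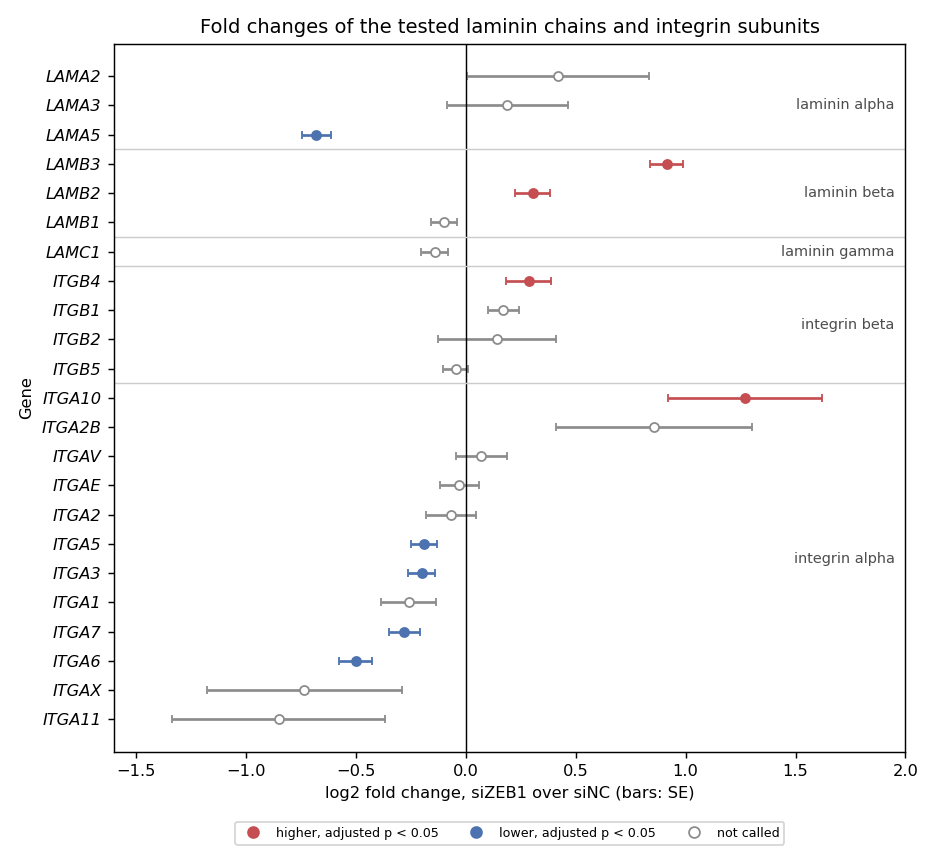
Log2 fold change of siZEB1 over siNC (horizontal axis) for the 23 tested members, ordered within each class, with bars of 1 SE from edgeR and filled points for members with an adjusted p under 0.05. LAMB3 (0.91) lies far to the right of zero with a short bar and LAMA5 (-0.68) far to the left, while ITGA10 (1.27) has a wide bar and rests on few counts.

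ZEB1 is known to bind the E-box CACCTG, whose reverse complement is CAGGTG, and the upstream sequences of members were searched for it. The 3 called members that hold it are shown. The sequences are those of RefSeq on GRCh38.p14, 250 bases before each annotated start, and 25 of the 36 members had an entry. Each line gives the gene, its position and the bases 5′ to 3′ on the strand of the gene, with CACCTG or CAGGTG in capitals, and bases that GENCODE 29 places inside the gene were left out of the LAMB3 line.
LAMB3, chr1:209652467-209652675: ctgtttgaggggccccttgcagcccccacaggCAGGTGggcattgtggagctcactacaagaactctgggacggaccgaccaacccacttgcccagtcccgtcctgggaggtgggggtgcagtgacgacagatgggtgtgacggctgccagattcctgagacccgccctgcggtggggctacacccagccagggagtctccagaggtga
LAMA5, chr20:62367313-62367562: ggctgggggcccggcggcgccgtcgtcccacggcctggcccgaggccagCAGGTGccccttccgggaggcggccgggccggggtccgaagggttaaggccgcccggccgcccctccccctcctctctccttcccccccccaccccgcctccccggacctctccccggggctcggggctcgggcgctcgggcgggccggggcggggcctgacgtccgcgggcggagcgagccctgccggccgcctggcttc
ITGA6, chr2:172427086-172427335: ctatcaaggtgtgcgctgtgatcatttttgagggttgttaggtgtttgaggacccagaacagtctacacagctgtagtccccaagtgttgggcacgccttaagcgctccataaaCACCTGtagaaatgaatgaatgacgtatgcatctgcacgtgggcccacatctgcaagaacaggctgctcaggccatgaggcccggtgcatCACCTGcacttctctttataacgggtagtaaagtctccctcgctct
LAMB3 and LAMA5 lie on the minus strand and ITGA6 on the plus strand. The motif began 218 bases before the start used for LAMB3, 201 bases before that of LAMA5, and 136 and 46 bases before that of ITGA6. Of these genes, LAMB3 was higher and LAMA5 and ITGA6 were lower in siZEB1. The other tested members that hold the motif, ITGA11, ITGB5 and LAMA3, were not called. For ITGB5 and LAMA3 it lies before an annotated start inside the gene as GENCODE 29 places it. The bases before the ITGB5 start at the outer end of the gene lack it. Members with the motif thus rose, fell or did not pass the test. The called members ITGA3, ITGA7 and ITGB4 had no entry. The 18 tested members with an entry had 25 promoters between them, since some have several starts, and 6 of the 25 held CACCTG or CAGGTG, as did 17.5% of all 35116 promoters. The related E-box TACCTG, or CAGGTA on the other strand, which shares no 6-base match with the former, was found in 4 of these 25 promoters and in 7.99% of all promoters. LAMB3 held it 33 and 23 bases before a second annotated start, and ITGA6 held it 151 bases before a second start. Among the tested members not called, LAMA3 held it 161 and 34 bases before its annotated start and ITGB5 69 bases before a start. GENCODE 29 places all of these sites of the related E-box, in LAMB3, ITGA6, LAMA3 and ITGB5, inside the genes. A match of these letters is not a binding site, and binding was not measured in these files.

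Among the laminin chains described here, LAMB3 rose the most. LAMB3, the β chain of an epithelial laminin (chromosome 1, 209614870 to 209652466), had 621, 639 and 598 counts with siNC and 1106, 1066 and 1015 with siZEB1. The groups stood well apart, with little spread within either. Its level rose from 29.6 ± 1.29 to 55.7 ± 2.78 CPM (SD, n = 3 each), or a log2 ratio of 0.91 (SE 0.074, adjusted p = 4.74e-08). In RNA from whole cultures such as these, a change in the number of cells that express a gene and a change in RNA per cell cannot be told apart. LAMB2, a β chain of vascular, muscle and glomerular basement membranes, had 1114, 1331 and 1264 counts with siNC and 1303, 1426 and 1448 with siZEB1. After scaling, the groups did not overlap (52.4, 59.4 and 65.6 CPM against 69.0, 74.2 and 75.7 CPM), and the log2 ratio was 0.30 (SE 0.0803, adjusted p = 0.00597), a far smaller rise than that of LAMB3. LAMB1, the most abundant β chain per kilobase, was at 280, 296 and 266 CPM with siNC and 265, 256 and 265 CPM with siZEB1. Its groups only just failed to overlap, and the log2 ratio of -0.10 (SE 0.0573) did not pass the test (adjusted p = 0.179). As a share of the β chain level per kilobase, LAMB3 went from 12.8 ± 0.823% to 21.7 ± 1.06% and LAMB1 from 69.8 ± 2.49% to 58.8 ± 0.623% (SD, n = 3 each). LAMB1 thus remained the leading β chain transcript in both groups.

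LAMC1, the γ chain of most laminins (chromosome 1, 183023460 to 183145592), had 5679, 6292 and 4689 counts with siNC and 4425, 4488 and 4775 with siZEB1, and the groups overlapped. Its log2 ratio of -0.14 (SE 0.0625) did not pass the test (adjusted p = 0.0813), although it did without replicate 3 of siNC (adjusted p = 0.00796). LAMC3 was too weak to be tested.

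**Figure D2:**
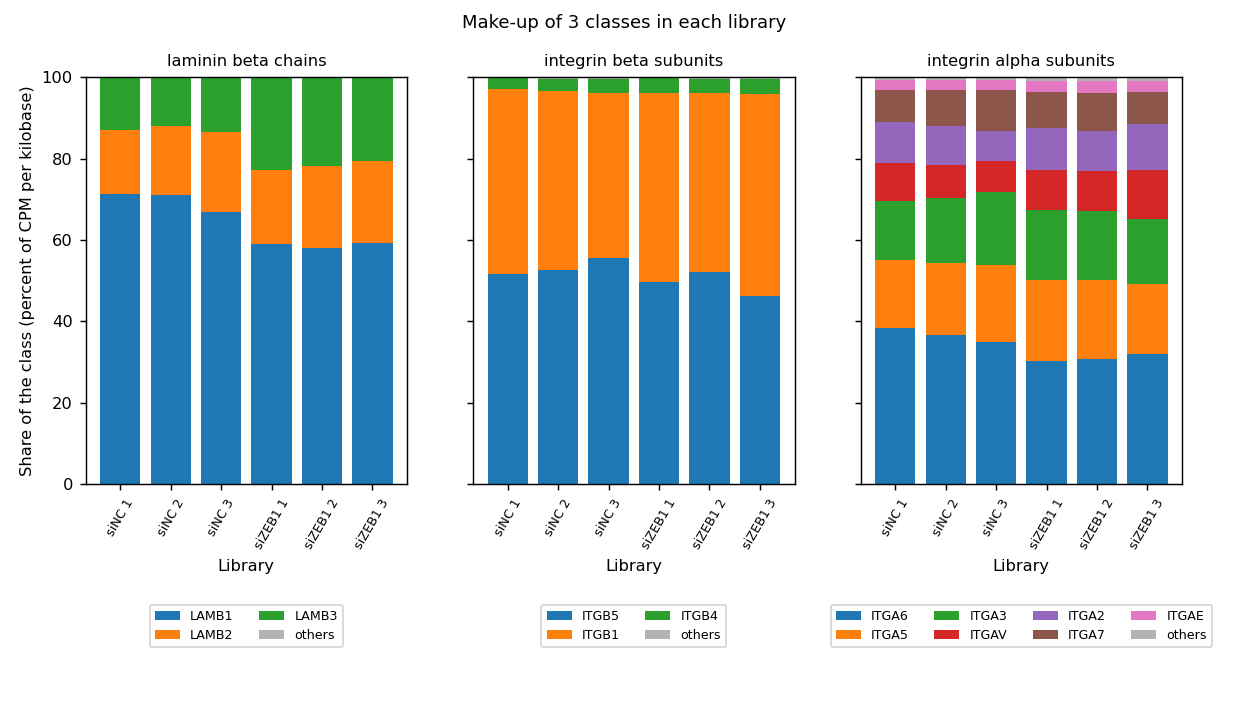
Share of each gene in the summed level of its class, in percent of CPM per kilobase of exon (vertical axis), for each of the 6 libraries, with laminin β chains on the left, integrin β subunits in the middle and integrin α subunits on the right. LAMB3 widens from a mean of 12.8% of the β chains with siNC to 21.7% with siZEB1, ITGA6 narrows from a mean of 36.7% to 31.1% of the α subunits, and ITGB5 and ITGB1 fill nearly all of the integrin β bars in both groups.

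LAMA3, the α chain that joins LAMB3, was measured at low counts. It had 36, 23 and 36 counts with siNC and 25, 35 and 39 with siZEB1, and the groups overlapped. Its level was 1.53 ± 0.444 CPM against 1.73 ± 0.366 CPM (SD, n = 3 each), and the log2 ratio of 0.19 (SE 0.275, adjusted p = 0.621) did not pass the test. With this standard error, a rise of LAMA3 as large as that of LAMB3 would lie more than 2 SE from the estimate. LAMA5, the α chain of the mature intestinal basement membrane (chromosome 20, 62307955 to 62367312), was nearly the only α chain at the RNA level, with 99.2 ± 0.173% of the α chain level per kilobase with siNC and 98.5 ± 0.509% with siZEB1. It had 6723, 8359 and 7305 counts with siNC and 4268, 4201 and 4258 with siZEB1. The siZEB1 libraries were close to each other and all below the siNC libraries. Its level fell from 356 ± 34.7 to 222 ± 3.80 CPM (SD, n = 3 each), or a log2 ratio of -0.68 (SE 0.0667, adjusted p = 4.57e-07). LAMA2, known from muscle, had 14, 15 and 16 counts with siNC and 9, 32 and 14 with siZEB1, and its sign turned to -0.24 from 0.42 on the log2 scale without replicate 2 of siZEB1.

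**Figure D3:**
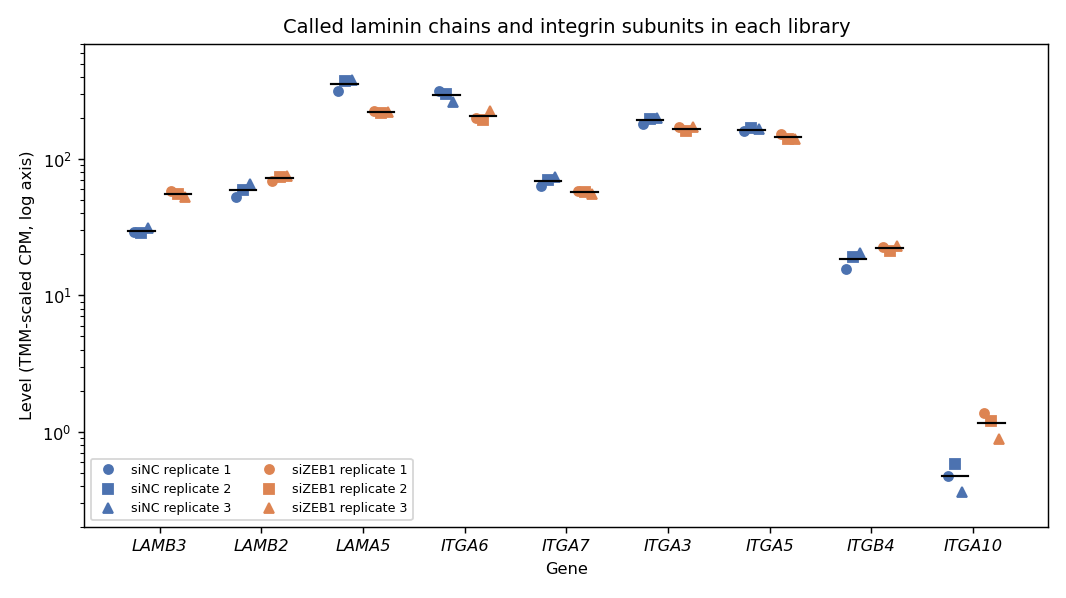
Level of the 9 called members in each library, in TMM-scaled CPM on a log axis, with blue symbols for siNC, orange symbols for siZEB1, a symbol shape for each replicate and a black line at the group mean. The groups do not overlap for any of the 9, and the distance between them is wide for LAMB3 and LAMA5 and narrow for ITGA3, ITGA5 and ITGB4.

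Of the 12 tested integrin α subunits, 1 rose, 4 fell and 7 did not pass the test, or 41.7% called beside 40.2% of all genes. ITGA6, ITGA7 and ITGA3, which form laminin receptors with ITGB1, were among the 4 that fell. ITGA6 (chromosome 2, 172427354 to 172506282), the most abundant α subunit per kilobase, had 6730, 6772 and 5083 counts with siNC and 3804, 3741 and 4349 with siZEB1. The siZEB1 libraries were all lower, and replicate 3 of siNC was the lowest of its group. The level fell from 294 ± 27.4 to 208 ± 17.2 CPM (SD, n = 3 each), or a log2 ratio of -0.50 (SE 0.0736, adjusted p = 3.76e-05). As a share of the α subunit level per kilobase, ITGA6 went from 36.7 ± 1.62% to 31.1 ± 0.889% (SD, n = 3 each). ITGA7, known as the laminin receptor of muscle, had 1359, 1574 and 1418 counts with siNC and 1095, 1103 and 1063 with siZEB1, without overlap, and fell by 0.28 on the log2 scale (SE 0.0707, adjusted p = 0.00421). ITGA3, which binds laminins with LAMA3 or LAMA5, had 3820, 4418 and 3879 counts against 3229, 3085 and 3275, and fell by 0.20 (SE 0.0623, adjusted p = 0.0155). The call of ITGA3 was lost without replicate 2 of siNC (adjusted p = 0.0706) or without replicate 2 of siZEB1 (adjusted p = 0.0863).

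The fibronectin receptor subunit ITGA5 had 3431, 3769 and 3176 counts with siNC and 2889, 2703 and 2672 with siZEB1, and fell by 0.19 on the log2 scale (SE 0.0607, adjusted p = 0.0184). This call was lost without replicate 2 of siNC or without replicate 2 or 3 of siZEB1 (adjusted p = 0.0813, 0.0853 and 0.0621). ITGAV, the α subunit of receptors for vitronectin and latent TGF-β, was at 97.8, 84.7 and 72.2 CPM with siNC and 82.1, 77.4 and 108 CPM with siZEB1. The spread within each group was larger than the difference between them, and the log2 ratio of 0.07 (SE 0.114) did not pass the test (adjusted p = 0.654). ITGA2, a collagen receptor subunit, was likewise at 100, 95.8 and 68.6 CPM against 82.1, 75.0 and 95.7 CPM, with a log2 ratio of -0.07 (SE 0.114, adjusted p = 0.675). It was called lower without replicate 3 of siNC, at -0.22 (adjusted p = 0.025). ITGA1, a collagen receptor subunit that lies just before ITGA2 on chromosome 5, was at 11.0 ± 1.36 CPM against 9.22 ± 1.31 CPM (SD, n = 3 each; log2 fold change -0.26, adjusted p = 0.113) and passed the test without replicate 3 of siNC (adjusted p = 0.0316) or of siZEB1 (adjusted p = 0.0438). The gene PELO and another on the same strand share 5.63% of the exonic bases of ITGA1, so its counts depend on how shared reads were assigned. ITGAE, which with ITGB7 binds E-cadherin in lymphocytes of the gut, was at 19.0 ± 1.13 CPM against 18.7 ± 0.741 CPM (SD, n = 3 each; adjusted p = 0.816).

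At low counts, ITGA10, a collagen receptor subunit known from cartilage, had 10, 13 and 7 counts with siNC and 26, 23 and 17 with siZEB1. The groups did not overlap, and the log2 ratio was 1.27 (SE 0.351, adjusted p = 0.00804), larger than that of LAMB3 but with a standard error over 4 times as wide. Per kilobase of exon, its level with siZEB1 was 0.183 ± 0.0391 CPM, below the 0.496 ± 0.0703 CPM of ITGA1 (SD, n = 3 each). ITGA11, a collagen receptor subunit of fibroblasts, had 10, 12 and 12 counts against 3, 4 and 10 (log2 fold change -0.85, SE 0.486, adjusted p = 0.177). ITGA2B, the platelet fibrinogen receptor subunit, had 15, 8 and 3 counts against 14, 14 and 15 (0.86, SE 0.445, adjusted p = 0.138), and it was called higher without replicate 1 of siNC, at 1.49 (adjusted p = 0.0324). ITGAX, found on myeloid cells, had 13, 13 and 18 counts against 7, 4 and 13 (-0.73, SE 0.444, adjusted p = 0.202). Without replicate 3 of siZEB1 the log2 ratio was -1.53 for ITGA11 (adjusted p = 0.0508) and -1.26 for ITGAX (adjusted p = 0.0692), while it was -0.56 for ITGA11 without replicate 1 of siZEB1 and -0.41 for ITGAX without replicate 2. None of these last 3 passed the test with all libraries, and their standard errors leave changes of either small or large size possible.

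Among the 4 tested β subunits, ITGB5 and ITGB1 made up nearly the whole level per kilobase, 53.3 ± 2.08% and 43.3 ± 2.63% with siNC and 49.4 ± 2.88% and 46.7 ± 2.79% with siZEB1 (SD, n = 3 each). ITGB1, the partner of most α subunits here, was at 245, 242 and 209 CPM with siNC and 260, 246 and 278 CPM with siZEB1. The groups did not overlap, and the log2 ratio of 0.17 (SE 0.0689) stood just outside the threshold (adjusted p = 0.0578). It fell inside with median-of-ratios size factors (adjusted p = 0.0468), with no filter on low counts (adjusted p = 0.0457), and without replicate 1 of siNC (adjusted p = 0.0378) or replicate 2 of siZEB1 (adjusted p = 0.0451). It stayed outside with DESeq2 (adjusted p = 0.0534), with library size alone (adjusted p = 0.0757) and without any of the other 4 libraries, and the log2 ratio was as low as 0.10 without replicate 3 of siNC (adjusted p = 0.216). ITGB5, which pairs with ITGAV, was at 297, 312 and 308 CPM with siNC and 298, 311 and 278 CPM with siZEB1, with full overlap and a log2 ratio of -0.05 (SE 0.0575, adjusted p = 0.559). ITGB2, the β subunit of leukocyte integrins, had between 24 and 43 counts in every library (0.14, SE 0.268, adjusted p = 0.707).

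ITGB4, the hemidesmosome partner of ITGA6 (chromosome 17, 75721328 to 75757818), had 329, 425 and 398 counts with siNC and 431, 410 and 438 with siZEB1. After scaling, the groups did not overlap, at 15.5, 19.0 and 20.6 CPM against 22.8, 21.3 and 22.9 CPM. The log2 ratio was 0.28 (SE 0.102, adjusted p = 0.0334). This call was among the least secure of the members: it was lost without replicate 1 or 2 of siNC (adjusted p = 0.17 and 0.06) and without replicate 1 or 3 of siZEB1 (adjusted p = 0.101 and 0.0717). The ratio of ITGA6 to ITGB4 per kilobase went from 17.0 ± 4.0 to 9.62 ± 0.591 (SD, n = 3 each), as ITGA6 was lower and ITGB4 slightly higher, with no separate test of the ratio. Both before and after the knockdown, ITGB4 RNA was the scarcer of the pair.

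The other 13 members fell below the filter on low counts and were not part of the test. In these libraries 3 counts stand for 0.134 to 0.159 CPM, so a library with 0 counts still allows a level up to there. Of the 13, ITGB8, which activates TGF-β, was the only one above 3 counts in every library besides LAMA1. ITGB8 had 5, 6 and 4 counts with siNC and 7, 11 and 16 with siZEB1, a ratio of 2.49 (95% exact interval 1.32 to 4.92, counting error only), and with no filter its adjusted p was 0.0802. LAMA1, the α chain of embryonic basement membranes, had 13, 11 and 5 counts against 8, 10 and 5. ITGB6, an epithelial partner of ITGAV, had 0, 1 and 0 counts with siNC and 6, 1 and 2 with siZEB1, a ratio of 9.89 whose interval runs from 1.37 to 434. The myeloid subunit ITGAM had 2, 8 and 0 counts against 8, 5 and 11 (ratio 2.64, interval 1.22 to 6.18), with overlapping groups and an adjusted p of 0.149 with no filter. These ratios therefore have intervals above 1 by counting alone, but none passed the test across replicates. All others of the 13 with counts in both groups had intervals that include 1. Among them were LAMA1 (ratio 0.872, interval 0.482 to 1.56), ITGA9 (0.616, 0.296 to 1.23) and ITGB7 (0.366, 0.0638 to 1.47). LAMC3 (0.489, 0.11 to 1.75) and ITGB3 (2.2, 0.47 to 13.6) were others.

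ITGA9, a receptor subunit for tenascin, had 10, 3 and 12 counts with siNC and 8, 3 and 3 with siZEB1. LAMC3 had 0, 5 and 4 counts against 2, 1 and 1, and ITGB7 had 4, 3 and 2 against 0, 2 and 1. ITGB3 had 1 count in each siNC library and 4, 2 and 0 with siZEB1. The remaining 5 (ITGA8, ITGAL, ITGAD, LAMB4 and LAMA4) never exceeded 2 counts in a library. Of the exonic bases, 42.1% in ITGB7 are shared with a gene on the opposite strand, and 51.6% in ITGB3 and 20.6% in ITGB6 with a gene on the same strand, so the few counts of these 3 genes are uncertain. For the called members such overlap was at most 5.37% of exonic bases, in ITGA6.

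**Figure D4:**
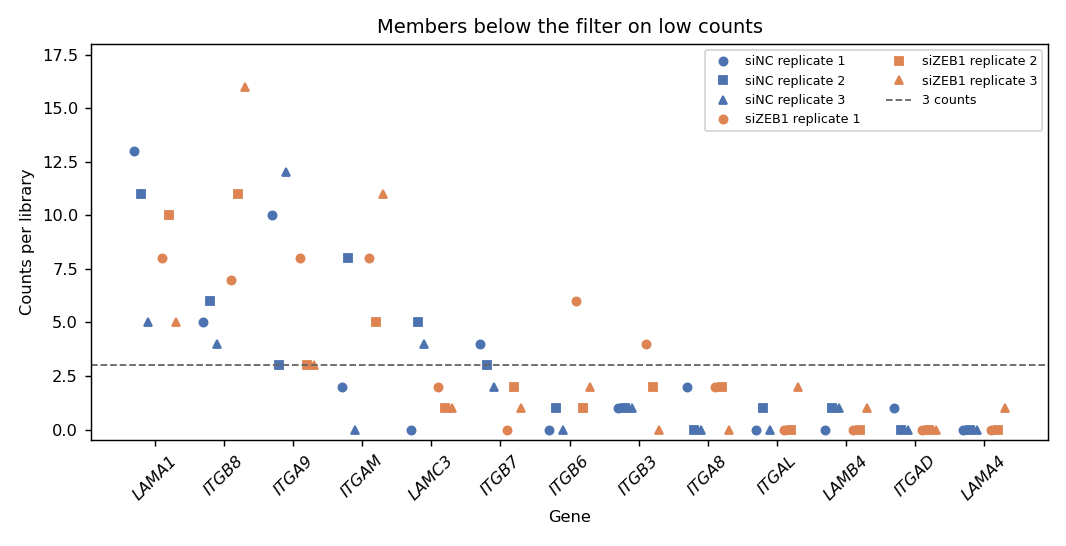
Counts in each library (vertical axis) for the 13 members below the filter on low counts, with blue symbols for siNC, orange symbols for siZEB1 and a symbol shape for each replicate. The dashed line marks 3 counts, which only ITGB8 and LAMA1 exceed in all 6 libraries, and the highest count of any of these members is 16, for ITGB8.

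Several members are known from blood, vessel or stromal cells, and markers of such cells were read in the same libraries. Of 7 leukocyte markers with values, 2 were tested and neither passed, TYROBP was at 0 in all but 1 library, and the summed level was 2.37 to 2.54 CPM with siNC and 2.81 to 3.12 CPM with siZEB1. Of the platelet markers, GP1BA had 20, 31 and 20 counts with siNC and 29, 36 and 27 with siZEB1 and did not pass (0.941 to 1.38 CPM against 1.41 to 1.87 CPM, adjusted p = 0.145). Of 3 endothelial markers with values, 2 were tested and neither passed (2.12 to 2.95 CPM against 1.62 to 2.65 CPM). Of 5 fibroblast markers with values, 2 were tested. PDGFRB passed, higher by 0.42 on the log2 scale (adjusted p = 0.0281), and COL1A1 did not, at -0.22 (adjusted p = 0.149). LUM was at 0 in all siNC libraries and had 1, 0 and 1 counts with siZEB1. The summed level of the fibroblast markers was 13.4 to 14.9 CPM against 13.3 to 15.3 CPM. The leukocyte sum and the level of GP1BA were higher in every siZEB1 library, as was the CPM of ITGA2B, and their part in these values was not tested.

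Proteins that work with the integrins inside the cell were read from fixed lists. Of 13 genes for activation and inhibition of integrins, 1 was higher, 7 were lower and 5 did not pass the test, with a median log2 fold change of -0.16. The share called was 61.5%, beside 40.2% of all genes, and neither this list nor those that follow was tested as a list. The largest changes were in TLN2, a talin that switches integrins on (-0.78, SE 0.133, adjusted p = 0.00016), in KRIT1, which relieves an inhibitor of ITGB1 (-0.53, adjusted p = 0.00364), in DOK1, an inhibitor that competes with talin (-0.49, adjusted p = 0.00101), and in FERMT1, the epithelial kindlin (-0.43, adjusted p = 6.19e-05). Activators and inhibitors thus both appear among the genes that fell. Genes on the same strand share 47.9% of the exonic bases of KRIT1, so its counts are uncertain.

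Of 9 genes of the complex of integrin-linked kinase and of focal adhesion kinase, 1 was higher, 5 were lower and 3 did not pass, with a median of -0.322. The adaptor LIMS2 fell by 0.79 on the log2 scale (SE 0.168, adjusted p = 0.00119) and LIMS1 by 0.63 (SE 0.0717, adjusted p = 2.54e-06), the latter from 459 ± 40.3 to 297 ± 26.6 CPM (SD, n = 3 each). PTK2, focal adhesion kinase, fell by 0.40 (SE 0.0701, adjusted p = 0.000222), and PXN, its scaffold paxillin, by 0.38 (SE 0.0811, adjusted p = 0.00131). The share called was 66.7%, beside 40.2% of all genes. ILK itself was at 0.592 CPM with siNC and 0.543 CPM with siZEB1, but it shares 78.5% of its exonic bases with genes on the opposite strand, so its level is uncertain.

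Around the laminins, 7 genes of the hemidesmosome and of other laminin receptors were listed, of which 6 were tested, 3 were higher and 3 were lower, so that all 6 tested were called, beside 40.2% of all genes. CD151, the tetraspanin that binds the laminin-binding integrins, fell by 0.62 (SE 0.077, adjusted p = 6.17e-06), PLEC, the plectin that ties ITGB4 to keratins, by 0.42 (SE 0.0585, adjusted p = 2.43e-05), and DST, another linker to keratins, by 0.34 (SE 0.09, adjusted p = 0.0065). BCAM, a receptor for LAMA5, rose by 0.29 (SE 0.0861, adjusted p = 0.0116). These intracellular linkers of ITGB4 were thus lower while ITGB4 itself was slightly higher, a call lost when any of 4 libraries was left out. The groups of DST overlapped, at 93.4 to 123 CPM with siNC and 78.7 to 94.2 CPM with siZEB1. COL17A1, the remaining hemidesmosome gene, was below the filter.

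Of 12 other basement membrane genes, 7 were tested, 1 was higher, 3 were lower and 3 did not pass, with a median of -0.309, or 57.1% called beside 40.2% of all genes. COL4A2, a chain of type IV collagen, rose from 15.2 ± 0.558 to 25.2 ± 1.46 CPM (SD, n = 3 each), by 0.73 on the log2 scale (SE 0.0865, adjusted p = 3.89e-06). NID1, which links the laminin network to type IV collagen, fell by 0.45 (SE 0.0861, adjusted p = 0.00047), COL18A1 by 0.40 (SE 0.0665, adjusted p = 0.000134), and AGRN, which binds laminin, by 0.31 (SE 0.0619, adjusted p = 0.000697). COL4A1, the usual partner chain of COL4A2, was below the filter, with 5, 3 and 2 counts with siNC and 10, 13 and 7 with siZEB1.

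Last, the 3′UTRs of the members were searched for the 7-mer GAACACA, which earlier work on these libraries had singled out by the fold changes of the genes that hold it, so its values are given as a description. Among all tested genes with a 3′UTR in GENCODE 29, the 1323 that hold it (10.7%) had a median log2 fold change of -0.229, with 45.1% called lower and 12.2% called higher. The 11007 that lack it had a median of 0.00645, with 21.4% called lower and 21.8% called higher. The genes that hold it also had longer 3′UTRs, with a median of 2850 bases against 868 bases. Of the 23 tested members, ITGA6 alone holds it, once, beginning at base 1440 of its 3′UTR, shown here in capitals with the bases around it.
ITGA6: gaaagaataGAACACAgtttgtagt
Of the untested members, ITGA8 and ITGB8 also hold it. The other 8 called members do not, among them LAMA5, the laminin chain that fell. The part of this 7-mer in the fall of ITGA6 was not tested.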

How the data were processed

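SW480 libraries (3 siNC, 3 siZEB1) were analysed from the read counts per Ensembl gene that the authors deposited, without normalization. The submitters' processing notes name Trimmomatic, HISAT2, SAMtools, featureCounts and hg38; their versions, the annotation and the strand setting were not given in the sources used here. Total counts were 19040636 to 22357633 per library. The study calls the replicates biological and uses the word independent for the controls.

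Genes kept by filterByExpr (14996 of 32029) were scaled by TMM and compared with edgeR 4.0.16 (R 4.3.3, limma 3.58.1) by its quasi-likelihood test, two-sided and without covariates, with Benjamini-Hochberg adjustment over all 14996. A gene was called at an adjusted p under 0.05. On simulated data with 200 of the 14996 genes changed, the test called 80% of them, and 2.5% of its calls were false. In the real libraries 40.2% of genes were called, and whether these rates hold there, or for the members, was not tested. Counting intervals are exact at 95% and, like the floor of 3 counts, cover counting error only. Exon lengths, overlaps and 3′UTRs (1 transcript per gene) came from GENCODE 29, which held 31059 of the identifiers and all 36 members. Tables were made with Python 3.11.15, pandas 2.3.3 and scipy 1.17.1.

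The members and lists were chosen with earlier results of these data known. One gene that the rule takes and 1 marker are not reported here and enter no count of members or markers. The genes named are all other members, ZEB1 and, per partner list, up to 4 called genes with the largest change. Alternatives were DESeq2 1.42.0, other scalings and filters, a replicate block, leaving out each library and both thresholds of the study, that at p under 0.05 added after seeing the data.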

Additional observations from a re-analysis of the deposited data

How the results depend on the processing

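The calls of LAMB3, LAMB2, LAMA5, ITGA6 and ITGA7 were kept with DESeq2, other size factors, other filters, the replicate block and each library left out, and ITGA10 was kept in all of these except the filter of at least 10 counts in every library, which removes it. Leaving out 1 library at a time, the log2 ratio of LAMB3 stayed within 0.88 to 0.95, of LAMA5 within -0.76 to -0.64, of ITGA6 within -0.58 to -0.45 and of ZEB1 within -2.95 to -2.79. The laminin chains called higher stayed at 2 and those called lower went from 1 to 2 (2 without siNC replicate 3), the integrin subunits called higher from 1 to 3 and lower from 2 to 6, and all genes called higher from 2305 to 2928 and lower from 2637 to 3311. At a fold change over 1.5 and p under 0.001 the counts were 678 higher and 1004 lower over all genes, 0 and 0 for integrin subunits, and 1 laminin chain higher. With p under 0.05 in its place, an alternative added after seeing the data, they were 1081 and 1402 over all genes, 1 and 0 for integrin subunits, and again 1 laminin chain higher. Requiring 10 counts in every library left 1 integrin subunit called higher. With the replicate block, 1 integrin subunit was higher and 2 were lower, as ITGB4, ITGA3 and ITGA5 were no longer called (adjusted p = 0.0537, 0.0763 and 0.0942). The numbers did not pair the libraries, since same-numbered libraries correlated at -0.20 to -0.05 and 0 of 6 correlated best with its own number, and the block changed no other call among the members. The sign turned when 1 library was left out for ITGA2 (0.03 without siNC replicate 1, 0.01 without siZEB1 replicate 2, range -0.22 to 0.03), ITGAE (0.00998 without siNC replicate 2, range -0.08 to 0.00998), ITGAV (-0.03 without siNC replicate 3, -0.09 without siZEB1 replicate 3, range -0.09 to 0.18), ITGB2 and LAMA2 without siZEB1 replicate 2 (-0.02, range -0.02 to 0.35, and -0.24, range -0.24 to 0.74) and LAMA3 without siNC replicate 2 (-0.04, range -0.04 to 0.35), none of which was called with all libraries. The cause was not tested. Depth limits the tested members near 1 CPM or below (ITGA10, ITGA11, ITGA2B, ITGAX and LAMA2), which had at most 32 counts in a library.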

Other observations

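Ligands of integrins other than laminin were read from a list of 18 genes, of which 12 were tested, 4 were higher, 5 were lower and 3 did not pass the test, with a median log2 fold change of -0.115. The share called was 75.0%, beside 40.2% of all genes, and the list was not tested as a list. CDH1, the E-cadherin that the integrin of ITGAE and ITGB7 binds, rose from 1.86 ± 0.532 to 30.4 ± 2.01 CPM (SD, n = 3 each), by 4.01 on the log2 scale (SE 0.142, adjusted p = 2.45e-12). Of its receptor, ITGAE was at 19.0 CPM with siNC and 18.7 CPM with siZEB1 and ITGB7 had at most 4 counts in a library. TGFBI, a matrix protein that binds integrins, fell by 1.24 (SE 0.103, adjusted p = 6.27e-08), from 17.3 ± 1.15 to 7.30 ± 0.193 CPM.

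ICAM1, the ligand of leukocyte integrins with ITGB2, fell by 1.12 (SE 0.0624, adjusted p = 5.23e-10), from 126 ± 2.32 to 57.9 ± 0.913 CPM, and it shares 23.6% of its exonic bases with genes on the opposite strand. FN1, the fibronectin bound by the integrin of ITGA5 and ITGB1, fell by 0.94 (SE 0.117, adjusted p = 6.41e-06), from 13.1 ± 1.32 to 6.85 ± 0.538 CPM. Both fibronectin and its receptor subunit ITGA5 were lower, the ligand by far more than the receptor. The call of ITGA5 was lost when any of 3 libraries was left out. Each of these 4 ligands, which were picked for the size of their change, had groups that did not overlap. The same held for 9 of the 12 tested genes of the list and for 49.5% of all genes.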
